A study of Mus musculus with 8 samples.

Results

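Protamines and transition proteins are the small basic proteins that repackage the DNA of the developing sperm. The genes Prm1, Prm2, Prm3, Tnp1 and Tnp2 were taken by symbol from a table of 57690 genes and loci measured in mouse testis. All 5 were found, each on 1 row, and all 5 were among the 20343 genes tested. The donors were C57BL/6 mice, 8 weeks old, given 2 doses of 200 µg into the peritoneum, either of an antibody against PD-L1 (anti-PD-L1) or of an IgG2b isotype control (IgG). PD-L1 is the ligand of PD-1, an inhibitory receptor of T cells. Tissue was collected 7 days after treatment, and each group held 4 bulk RNA libraries. No allele or transgene is named for either group, and whole tissue was sequenced, so germ cells and somatic cells share each library. Whether each library stands for its own animal is not stated in the labels. The p-values thus reflect the spread among these samples alone, and that spread may be technical.

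During spermiogenesis the histones of the round spermatid are removed, transition proteins TNP1 and TNP2 take their place for a short time, and protamines PRM1 and PRM2 then condense the chromatin of the elongating spermatid. The messenger RNAs are made in round spermatids, stored in a repressed state and translated days later, so transcript and protein of these genes are separated in time. PRM2 is made as a precursor that is processed after it binds DNA. Prm3 encodes an acidic protein of the spermatid cytoplasm and is named for its place in the gene cluster and not for a role in packing DNA.

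Of the 5 genes, 4 lie side by side in mm10 on chromosome 16, on the minus strand, within 8951 bases (10787936 to 10796886, by the first transcript of each gene in GENCODE M21). From the end nearest Socs1 the order is Tnp2 (10787936 to 10788660), Prm3 (10790505 to 10790914), Prm2 (10791380 to 10792105) and Prm1 (10796326 to 10796886). Tnp1 stands alone on chromosome 1 (73015074 to 73015909, minus strand). Prm1, Prm2, Tnp1 and Tnp2 have 2 exons each in that transcript and Prm3 has 1. The spliced lengths were 469 bases for Prm1, 621 for Prm2, 410 for Prm3, 437 for Tnp1 and 554 for Tnp2, and the deposited gene lengths were the same 5 numbers. In GENCODE M21 Prm1 and Prm2 also have a second transcript each, which starts farther upstream.

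The sequences just upstream of the start sites are shown because the 5 genes are switched on in the same cells and because CREM, a factor that binds the cAMP response element, is known to act on several of them. They are read 5′ to 3′ on the gene's strand from the RefSeq promoter table for GRCm38.p6, in which all 5 genes were matched. Capitals mark TGANNTCA, which keeps the outer bases of the cAMP response element, and the TATA box core TATAAA on either strand. The stretches of Prm2, Prm3, Tnp1 and Tnp2 begin 100 bases before the RefSeq start and stop before the first exon of both annotations. The GENCODE start of Prm1 lies 63 bases upstream of that in RefSeq, so 30 bases around the element are shown, which reach into the GENCODE exon. The element begins 64 bases before the RefSeq start, so nearly all of it lies in that exon.
Prm1, chr16:10796870-10796899, minus strand: cctggtcctcttTGACTTCAtaattcctag
Prm2, chr16:10792106-10792205, minus strand: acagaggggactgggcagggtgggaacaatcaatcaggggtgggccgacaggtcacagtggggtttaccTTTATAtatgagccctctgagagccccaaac
Prm3, chr16:10790915-10791014, minus strand: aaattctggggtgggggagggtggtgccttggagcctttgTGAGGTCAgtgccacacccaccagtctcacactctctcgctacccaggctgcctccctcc
Tnp1, chr1:73015910-73015999, minus strand: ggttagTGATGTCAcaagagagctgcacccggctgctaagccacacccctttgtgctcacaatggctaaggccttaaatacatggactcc
Tnp2, chr16:10788661-10788755, minus strand: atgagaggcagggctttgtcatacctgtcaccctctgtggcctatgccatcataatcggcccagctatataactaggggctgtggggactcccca

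In the window from 250 bases before to 50 after the RefSeq start, on both strands, the full element TGACGTCA was in 0 of the 5 promoters and in 1.79% of the 32851 promoters of the table. Its core TGACG was also in 0 of 5, and in 20.8% of all promoters. TGANNTCA, which includes the full element and was searched only after the 5 sequences had been seen, was in 3 of 5 and in 14.1% of all promoters. It began 64 bases before the start in Prm1, as TGACTTCA, 60 before in Prm3, as TGAGGTCA, and 94 before in Tnp1, as TGATGTCA. TATAAA was found in Prm2 alone, on the strand opposite the gene, so that it reads TTTATA on the gene's own strand, beginning 31 bases before the start, and in 13.6% of all promoters. CCAAT was found in Prm3 alone, 150 bases before the start, and in 37.4% of all promoters. These are matches of letters and not binding sites.

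Values are in TPM, a level scaled for gene length and set so that the genes of a library add up to 1000000. The read depth behind them is unknown. Of the 8 libraries, IgG replicate 4 and anti-PD-L1 replicate 1 stood apart: 28895 and 28830 genes reached 0.1 TPM in them, against 26256 to 26651 in the other libraries. The differences and summed share of the 5 genes are therefore given with and without them. Transcripts encoded by mitochondria, counted as the rows whose symbol begins with mt-, took from 2.30% to 3.02% of the libraries. Any mitochondrial reads assigned to rows with other symbols are not in that share. Defining markers of somatic testis cells were present in both groups, with Wt1 of Sertoli cells at 30.5 TPM in IgG and 30.8 TPM in anti-PD-L1 libraries and Cyp11a1 of Leydig cells at 97.0 and 94.4 TPM. The epididymal marker Lcn5 was listed at 0 in all 8 libraries, and Crisp1 was at most 0.27 TPM.

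Of the 5 genes, 4 were the most abundant transcripts of the testis by their mean. By mean TPM over the 8 libraries Prm1, Prm2, Tnp2 and Tnp1 were ranks 1 to 4 of all rows, at 14553, 14152, 14022 and 13107 TPM. The next row, the mitochondrial gene mt-Atp8, was at 11613 TPM, and in 1 library, anti-PD-L1 replicate 4, it was above all 5 genes, at 13940 TPM. Prm3 was rank 227, at 557 TPM. Among the 4 abundant genes the order was not fixed: Prm1 led in 4 libraries, Prm2 in 2 and Tnp2 in 2. Tnp1 was below Prm1 in 8 of 8 libraries and below Prm2 and Tnp2 in 7 of 8 each, while Prm2 exceeded Tnp2 in 4 of 8.

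All 5 genes had lower mean values in anti-PD-L1 than in IgG libraries, and none of these differences passed the test over all genes. The log2 differences were between -0.21 and -0.14 with a median of -0.19, where the median of all 20343 genes tested was 0.026. Past a Benjamini-Hochberg adjusted p of 0.05 in limma were 0 of the 5 genes and 0% of all genes. An unadjusted p under 0.05 was reached by 2 of 5, Prm1 and Tnp1, where 2.22% of all genes were lower with such a p. In bulk tissue fewer spermatids and less of the transcript per spermatid cannot be told apart. Log2 differences were taken on log2(TPM + 1), anti-PD-L1 minus IgG.

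Prm1, the protamine common to mammals, was at 16389, 15712, 16633 and 13780 TPM in IgG replicates 1 to 4. In anti-PD-L1 replicates 1 to 4 it was at 14118, 12986, 14707 and 12102 TPM. The groups overlapped, because IgG replicate 4 was low, below 2 of the 4 anti-PD-L1 libraries. Means were 15628 ± 1293 and 13478 ± 1163 TPM (SD, n = 4). The log2 difference was -0.21 (SE 0.08, 95% confidence interval from -0.39 to -0.04), with an adjusted p of 0.853 in limma. With the 70 possible assignments of libraries to groups enumerated (two-sided exact permutation test, smallest possible p 0.0286), p was 0.0857.

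Prm2, the protamine with the precursor, was at 15219, 15249, 16748 and 12686 TPM in IgG replicates 1 to 4. It was at 12247, 13483, 14609 and 12974 TPM in anti-PD-L1 replicates 1 to 4. IgG replicate 4 was lower than 3 of the 4 anti-PD-L1 libraries, and anti-PD-L1 replicate 1 was the lowest of all 8. The log2 difference was -0.16 (SE 0.09, interval from -0.36 to 0.034), with an adjusted p of 0.999 in limma and p = 0.171 in the exact permutation test. After quantile normalization it was 0.013, the only change of sign among the alternatives of the 5 genes.

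Prm3, the acidic member of the cluster, was at 597, 625, 593 and 515 TPM in IgG replicates 1 to 4. It was at 495, 540, 582 and 505 TPM in anti-PD-L1 replicates 1 to 4. Its groups overlapped again through IgG replicate 4, and its level was far under those of its neighbours in the cluster in 8 of 8 libraries. The log2 difference was -0.14 (SE 0.07, interval from -0.30 to 0.030), with an adjusted p of 0.999 in limma and p = 0.143 in the exact permutation test.

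Tnp1, the smaller transition protein, was at 14562, 14497, 15153 and 12080 TPM in IgG replicates 1 to 4. It was at 12441, 11955, 12825 and 11347 TPM in anti-PD-L1 replicates 1 to 4. The lowest IgG library lay between the anti-PD-L1 libraries and the other 3 above them all. The log2 difference was -0.21 (SE 0.07, interval from -0.38 to -0.04), with an adjusted p of 0.826 in limma and p = 0.0857 in the exact permutation test. An antisense gene, 1700027A15Rik, shares 40 of the 437 exon bases of Tnp1 on the other strand, and the strand setting of the counting is not given in the sources used here, so reads of that stretch cannot be assigned with certainty. It was at 1400 ± 191 TPM in IgG and 1185 ± 80.6 TPM in anti-PD-L1 libraries.

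Tnp2, the transition protein that binds zinc, was the most variable of the 5 in IgG libraries, at 13735, 16053, 17316 and 12898 TPM in replicates 1 to 4. It was at 13594, 12470, 13896 and 12214 TPM in anti-PD-L1 replicates 1 to 4. Here IgG replicates 1 and 4 both lay within the range of the anti-PD-L1 libraries. The log2 difference was -0.19 (SE 0.09, interval from -0.41 to 0.020), with an adjusted p of 0.982 in limma and p = 0.143 in the exact permutation test. Its coefficient of variation was 13.6% in IgG libraries, where the lowest of the 5 genes was at 8.1%.

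**Figure D1:**
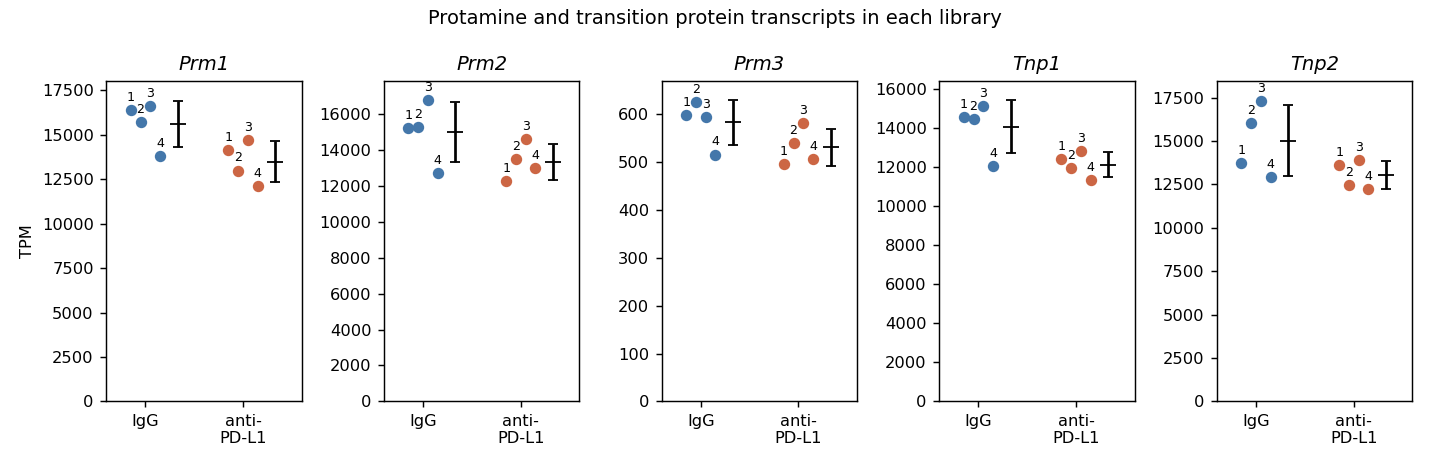
TPM (linear axis from 0) of each gene in each library, with points numbered by replicate, the mean as a bar and the SD as whiskers (n = 4). IgG replicate 4 lies among the anti-PD-L1 libraries for all 5 genes, and the groups overlap for each.

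How far the groups stood apart turned on IgG replicate 4. With all 8 libraries 0 of 5 genes had every anti-PD-L1 library below every IgG library, and 1.23% of all genes tested did. Without IgG replicate 4 this held for 4 of 5, Tnp2 being the exception, against 2.85% of all genes. Without that library and anti-PD-L1 replicate 1 it held for the same 4 genes, against 5.15% of all genes. Without IgG replicate 4 the log2 differences were -0.27 for Prm1, -0.24 for Prm2, -0.19 for Prm3, -0.28 for Tnp1 and -0.26 for Tnp2. With both libraries that stood apart left out they were -0.30, -0.20, -0.16, -0.29 and -0.28 in the same order. The smallest differences came without IgG replicate 3 for Prm2 and Tnp2, at -0.11 and -0.12. Over the 8 fits that each left out 1 library the ranges were from -0.27 to -0.16 for Prm1, from -0.24 to -0.11 for Prm2, from -0.19 to -0.10 for Prm3, from -0.28 to -0.17 for Tnp1 and from -0.26 to -0.12 for Tnp2. Without IgG replicate 4 all 5 had an unadjusted p under 0.05, where 2.85% of all genes were lower with such a p. In that fit none of the 5 passed after adjustment over all genes, with the smallest adjusted p at 0.212 for Tnp1 in limma, while 15 of all genes tested did. Leaving out this library was chosen with earlier results of these data known.

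Within a library the 5 genes moved together. Across the 8 libraries Pearson correlations of log2(TPM + 1) were between 0.72, for Prm3 with Tnp2, and 0.97, for Prm1 with Tnp1, which lie on different chromosomes. These are descriptions over 8 libraries that share a total and a group difference. Ratios of 2 genes in a library do not depend on the library total, and 3 were set against each other between the groups (exact permutation, two-sided, Benjamini-Hochberg over the 3). The ratio of Prm2 to Prm1 was 0.929, 0.971, 1.01 and 0.921 in IgG replicates 1 to 4 and 0.867, 1.04, 0.993 and 1.07 in anti-PD-L1 replicates 1 to 4. Both the lowest and the highest ratio were in anti-PD-L1 libraries, and the log2 difference of 0.050 had an exact p of 0.543, adjusted 0.886. The ratio of Tnp2 to Tnp1 was 1.07 ± 0.0870 in IgG and 1.07 ± 0.0216 in anti-PD-L1 libraries (SD, n = 4), with an exact p of 0.886, adjusted 0.886. The ratio of Tnp1 to Prm1 was 0.900 ± 0.0209 and 0.903 ± 0.0313, with an exact p of 0.857, adjusted 0.886. No difference in these ratios was detected with 4 libraries a group.

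Together the 5 genes made up 6.05%, 6.21%, 6.64% and 5.20% of the library total in IgG replicates 1 to 4. In anti-PD-L1 replicates 1 to 4 they made up 5.29%, 5.14%, 5.66% and 4.91%. The means were 6.03% ± 0.607 and 5.25% ± 0.314 (SD, n = 4), a difference of -0.77 percentage points, or -1.05 without IgG replicate 4 and -1.06 without that library and anti-PD-L1 replicate 1. A sum over chosen genes is given without a test. Prm1, Prm2, Tnp1 and Tnp2 contributed nearly all of it, and Prm3 at most 0.0625% of any library. These genes are short, so their share of sequenced bases is smaller than their share of TPM: weighted by the deposited gene length it was 1.56% ± 0.188 in IgG and 1.33% ± 0.0825 in anti-PD-L1 libraries.

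The share of the 5 genes sets how far it can move other TPM values, since what they take is lost to all others. When they were taken out of the total, every other value became larger by 5.48% to 7.12% in IgG libraries and by 5.17% to 6.00% in anti-PD-L1 libraries. The widest gap of this factor between any 2 libraries, IgG replicate 3 and anti-PD-L1 replicate 4, was 0.026 on the log2 scale, or 1.85%. Between the group means it was -0.012, so the lower share in anti-PD-L1 libraries raised their other values by that small amount relative to IgG libraries.

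Among the 20338 other genes tested the median log2 difference went from 0.026 to 0.016 when the 5 genes left the total, a median shift of -0.011. Shifts of single genes were between -0.077 and 0.062, because the logarithm of a value plus 1 does not scale exactly. Standard errors of these log2 differences had a median of 0.14. The sign of the difference changed for 688 genes (3.38%), all of them with a difference of at most 0.012 in size before, and 118 genes (0.58%) crossed an unadjusted p of 0.05. Genes with a higher mean in anti-PD-L1 libraries went from 58.3% to 54.9% of the others. Insl3, the hormone gene of Leydig cells and the Leydig cell marker with the smallest p, differed by 1.30 before and by 1.29 after. The 5 genes themselves differed by -0.23 (Prm1), -0.18 (Prm2), -0.15 (Prm3), -0.22 (Tnp1) and -0.21 (Tnp2) on that scale. With median-ratio scaling they were between -0.24 and -0.16. After quantile normalization, which forces all libraries onto a common distribution and by construction leaves little room for differences at the top ranks, they were between -0.091 and 0.013, with Prm2 the one above 0.

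**Figure D2:**
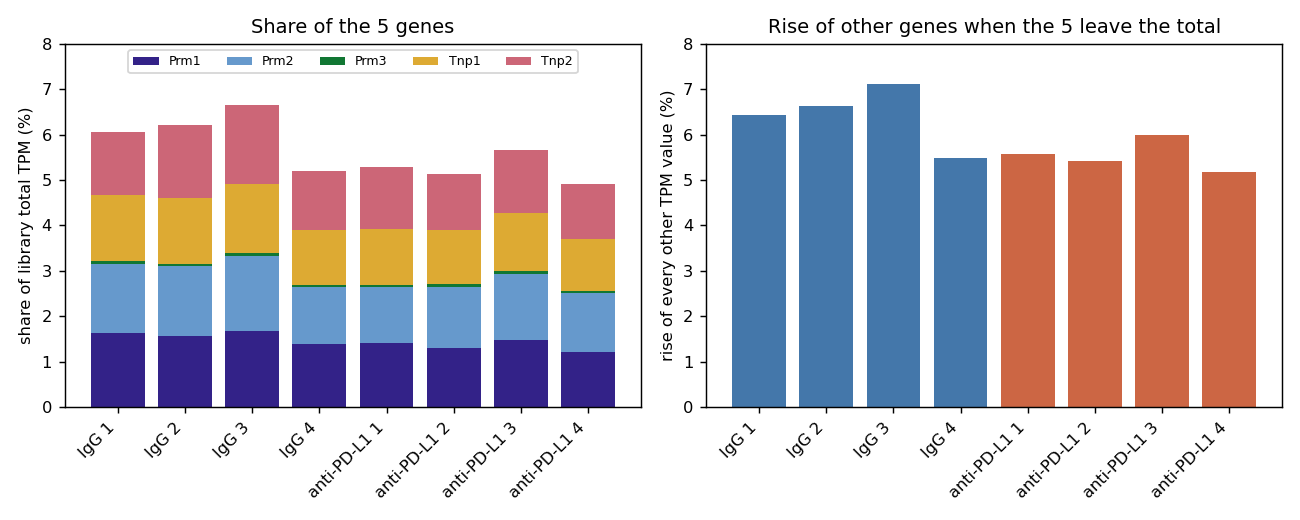
Left, stacked share of each library's total TPM (percent) held by the 5 genes. Right, the rise (percent) of every other TPM value when they leave the total, with IgG in blue and anti-PD-L1 in orange. IgG replicates 1 to 3 hold 6.05% to 6.64%, and the other 5 libraries 4.91% to 5.66%.

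**Figure D3:**
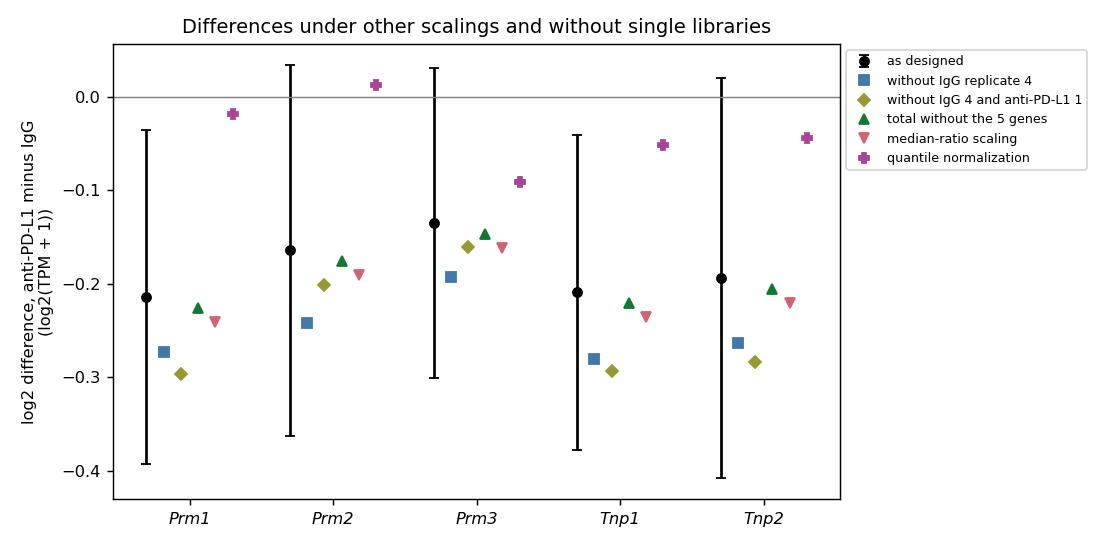
Log2 difference of each gene, anti-PD-L1 minus IgG, as designed (black, with its 95% confidence interval) and under 5 alternatives. Values are below 0 apart from Prm2 after quantile normalization, at 0.013.

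Other genes of the same steps were taken from lists chosen with earlier results of these data known. In each list 0 genes passed an adjusted p of 0.05 in limma, and of all genes tested 41.7% were lower. That share was 35.1% without IgG replicate 4 and 39.6% without that library and anti-PD-L1 replicate 1. Median-ratio scaling and quantile normalization shifted the log2 differences of other genes by medians of -0.024 and -0.023. The 41.7% is therefore not the background of counts under those scalings. Chromatin factors of histone removal and protamine loading were mixed, with 20 of 34 tested genes higher and 14 lower (18 lower with median-ratio scaling, 17 after quantile normalization) and a median log2 difference of 0.020. Brdt, whose bromodomains read acetylated histones in spermatids, was at 174 ± 6.44 TPM in IgG and 196 ± 9.75 TPM in anti-PD-L1 libraries. Hmgb4, an HMG-box protein of germ cells, was at 890 ± 42.8 and 817 ± 29.5 TPM, and Hils1, a linker histone of spermatids, at 913 ± 43.7 and 836 ± 37.5 TPM. Groups did not overlap for Brdt, which was higher in anti-PD-L1 libraries, and for Hmgb4, which was lower. Genes named from the lists here and below are those with the smallest p in the same fit, a choice that favours groups without overlap. Of all genes tested, 1.23% had every anti-PD-L1 library below every IgG library, the direction of Hmgb4. The share in the other direction, that of Brdt, was not counted.

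Transcription regulators linked to these genes were higher in 11 of 18 and lower in 7 (11 lower with median-ratio scaling), with a median of 0.017. Atf1, a factor of the CREB family, differed by 0.20 (SE 0.07), the TATA-binding protein gene Tbp by 0.091 and Sox5 by 0.16, which became 0.062 with IgG replicate 1 left out and 0.10 with anti-PD-L1 replicate 2 left out. Proteins of storage and delayed translation of spermatid mRNAs were higher in 14 of 28 and lower in 14, with a median of 0.0047. The RNA-binding protein gene Khdrbs1 was at 37.8 ± 2.37 TPM in IgG and 44.8 ± 1.47 TPM in anti-PD-L1 libraries. Its groups did not overlap, and its adjusted p was 0.653 in limma. The share of all genes that were higher without overlap was not counted. Tsnax, the partner of translin, differed by 0.23 and the germ cell RNA helicase gene Ddx4 by 0.11.

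Transcripts of elongating spermatids other than the 5 genes were lower in 28 of 33, with a median of -0.060, or in 27 of 33 and -0.084 without IgG replicate 4. They were lower in 29 of 33 when the 5 genes left the total, in 31 with median-ratio scaling and in 25 after quantile normalization. Iqcf1 was at 350 ± 17.9 TPM in IgG and 307 ± 11.3 TPM in anti-PD-L1 libraries. The groups did not overlap, and the log2 difference of -0.19 had an adjusted p of 0.657 in limma. Calr3, a testis calreticulin, differed by -0.18 and Spata3 by -0.15. Summed, the 33 elongating spermatid genes were at 32135 to 35271 TPM in IgG and 30982 to 34046 TPM in anti-PD-L1 libraries. For 24 round spermatid genes the sums were 9972 to 10775 and 9682 to 10676 TPM, so both pairs of ranges overlapped. Round spermatid transcripts were lower in 6 of 24, with a median of 0.057, and were lower in 9 with median-ratio scaling and 5 after quantile normalization. Of these, the acrosomal membrane protein gene Spaca1 differed by 0.30 (0.19 without IgG replicate 2), the sperm hyaluronidase gene Spam1 by 0.18 and the lysozyme-like gene Lyzl6 by 0.17. Meiotic spermatocyte markers were lower in 7 of 22 and spermatogonia markers in 4 of 15, with medians of 0.075 and 0.086. For Mybl1, a transcription factor of spermatocytes, the difference was 0.17, and for Id4 of spermatogonia it was 0.40.

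**Figure D4:**
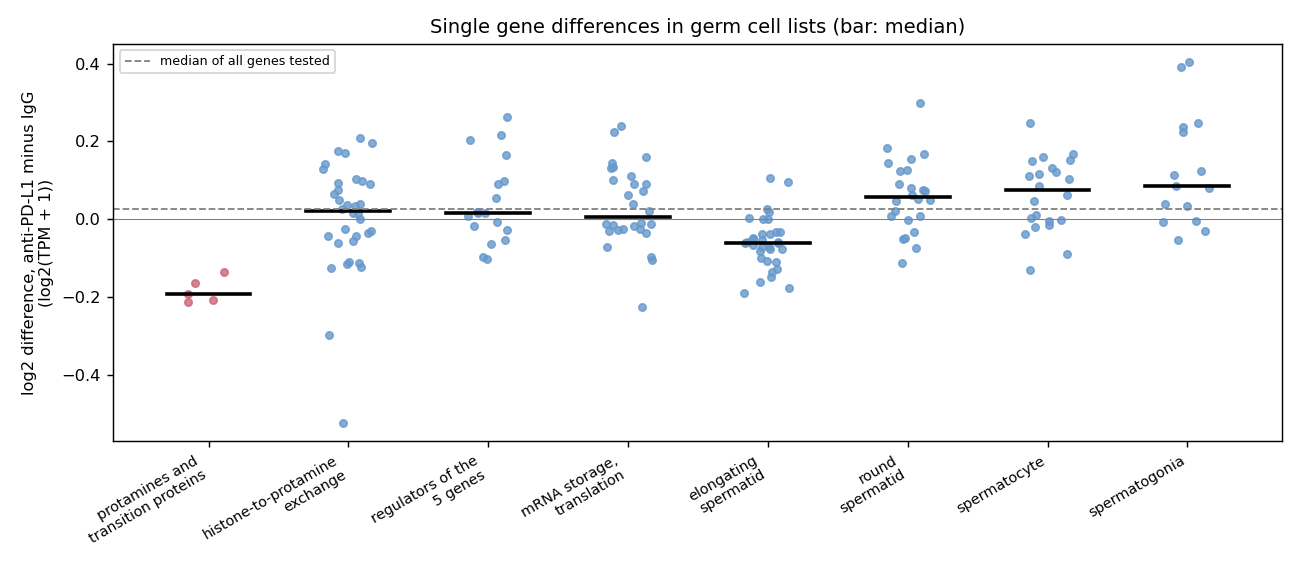
Log2 difference (anti-PD-L1 minus IgG) of single genes in 8 sets, each point a gene and each bar the median of its set; the dashed line is the median of all genes tested. The protamine and transition protein genes lie between -0.21 and -0.14, and the elongating spermatid set has its median at -0.060.

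Markers of other cells were measured beside these values, and their part in the differences was not tested. The summed level of 20 Sertoli markers was from 2759 to 3222 TPM in IgG and from 2635 to 3837 TPM in anti-PD-L1 libraries, with 15 of 20 tested genes higher, or 10 of 20 with median-ratio or quantile scaling. That of 15 Leydig markers was from 1573 to 1998 and from 2615 to 3805 TPM, with 8 of 14 tested genes higher. Insl3 carried that separation: the other Leydig markers summed to between 821 and 999.6 TPM in IgG and between 776 and 1081 TPM in anti-PD-L1 libraries, which overlap. The sum for 14 macrophage markers was from 82.3 to 103 and from 91.3 to 118 TPM, with 10 of 12 tested genes higher. Of these 12, 2 were lower, or 5 with median-ratio or quantile scaling and 4 without the 2 libraries that stood apart. That of 18 lymphocyte markers was from 40.1 to 65.4 and from 42.6 to 46.4 TPM, with 1 of 4 higher. For 12 endothelial and peritubular markers it was from 134 to 152 and from 126 to 140 TPM, with 2 of 12 higher and 10 lower, or 5 lower without the 2 libraries that stood apart. Adipocyte markers summed to 108 TPM in IgG replicate 1 and to between 10.1 and 37.5 TPM in the other libraries, with 0 of 7 tested genes higher. Red blood cell transcripts were from 34.1 to 209 and from 50.6 to 159 TPM, with 5 of 5 tested genes higher, among them near-identical globin copies that can share reads. Epididymal markers were from 425 to 448 and from 382 to 434 TPM, nearly all of it Cst8, which the testis also expresses, and 2 of 12, Lcn5 and Lcn8, were listed at 0 in every library. Mitochondrially encoded transcripts were higher in 13 of 15.

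Likeness to the summed level of the 5 genes over the 8 libraries was ranked among 7806 other genes averaging 10 TPM or more. Provisional symbols, such as those with Gm or Rik, clone names and pseudogene symbols, were left out of that ranking. The 5 closest were Fscn3, Spata32, Hmgb1-rs17, Knstrn and Oscp1, with Pearson correlations of 0.96, 0.96, 0.96, 0.96 and 0.95. Fscn3 is a fascin of the testis and was in the elongating spermatid list. It was at 182 ± 14.0 TPM in IgG and 163 ± 9.70 TPM in anti-PD-L1 libraries. Hmgb1-rs17 is a related sequence of Hmgb1 and can share reads with it. The 5 most opposite were Raly, Paip1, Ints13, Nap1l1 and Ipo7, at -0.99, -0.99, -0.97, -0.97 and -0.97. Raly, an RNA-binding protein gene, was at 53.7 ± 5.12 TPM in IgG and 60.2 ± 3.97 TPM in anti-PD-L1 libraries, and its correlation was -0.995 in the IgG and -0.994 in the anti-PD-L1 libraries alone. Others were weaker there: in anti-PD-L1 libraries alone the 5 closest ranged from 0.67 (Oscp1) to 0.999 (Knstrn). The 5 most opposite ranged from -0.994 (Raly) to -0.84 (Ipo7) in those libraries. These are the extremes of many genes over 8 points that share a total and are given as a description.

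Next to the cluster, Socs1, an inhibitor of cytokine signalling, was at 0.492 ± 0.159 TPM in IgG and 0.668 ± 0.224 TPM in anti-PD-L1 libraries, and was below the filter of 1 TPM. Upstream of the first Prm1 transcript the antisense gene Gm46563 was at 10.9 TPM in IgG replicate 4 and 10.5 TPM in anti-PD-L1 replicate 1, and between 1.48 and 2.59 TPM in the other 6 libraries. It was thus high in the same 2 libraries that held more detected genes.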

How the data were processed

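Bulk RNA of mouse testis was measured in 4 IgG and 4 anti-PD-L1 libraries, grouped and numbered by the sample titles. Per the labels' protocols, TRIzol was used for extraction, DNase I against genomic DNA and a TruSeq RNA kit for the libraries. The deposited table gives TPM per gene as made by the authors, with group means and gene length, per the file headers. Build mm10 and the tools CASAVA 1.8, HISAT2, StringTie and RSEM are listed, without role or order, per the submitters' processing notes. Not given in the sources used here were annotation, strand setting and filters. TPM keeps no depth, so no count-based precision is given.

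Values were transformed to log2(TPM + 1), and the 20343 genes averaging 1 TPM or more were fitted with limma 3.58.1 in R 4.3.3 (intensity trend, group term, no covariates) and adjusted by Benjamini-Hochberg over all of them. The fit was tested on simulated data. For single values and ratios, exact permutation tests (two-sided) were run in SciPy 1.17.1. The authors' mean columns, equal to the averages of the 4 libraries, went unused. Gene positions are from GENCODE M21 and promoters from RefSeq GRCm38.p6. No protein sequences were used here.

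The 5 genes, the 16 lists and the tests were chosen with earlier results of these data known. Selected were the 5 genes, the 3 genes with the smallest p in each of 5 spermatid lists and 1 in each other list. Also selected were the 10 most abundant genes, and the 5 most like and 5 most opposite to the summed level. These last were taken from genes averaging 10 TPM or more, without provisional, clone or pseudogene symbols. Some of the selected genes are not described here. Alternatives were a smaller pseudocount (0.1), filters of 0 and 5 TPM, quantile and median-ratio scaling, totals without the 5 genes or without mitochondrial transcripts, no trend, array quality weights, the replicate number as a block, and libraries left out. The motif TGANNTCA, the counts of groups that do not overlap without libraries, and the share weighted by length were chosen after seeing the data.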

Additional observations from a re-analysis of the deposited data

Results flagged for a closer look

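Among 104 groups of 4 libraries examined for a library far from the other 3, 4 held one, where chance gives about 5%. None was a protamine or transition protein gene, a ratio or the summed share. Knstrn, one of the genes most like the summed level, was at 236 TPM in IgG replicate 4 and at 281 to 283 TPM in the other IgG libraries. Sox5 was at 120 TPM in IgG replicate 1 and at 159 to 160 TPM in the other 3. Spam1 was at 38.3 TPM in anti-PD-L1 replicate 1 and at 44.3 to 44.9 TPM in the other anti-PD-L1 libraries. The red blood cell gene Hba-a2 was at 72.0 TPM in IgG replicate 1 and at 7.54 to 8.28 TPM in the other 3.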

How the results depend on the processing

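Over 19 alternatives for each of the 5 genes, 94 of 95 log2 differences were below 0 and none passed, with adjusted p from 0.188 to 1 in limma. Filters, the intensity trend and the replicate block cannot change a log2 difference. Their values repeat the one as designed and add nothing on its sign. The exception in sign was Prm2 after quantile normalization, at 0.013. Genes past the threshold numbered 0 as designed, 1 with a pseudocount of 0.1, 5 with array quality weights, from 0 to 15 with single libraries left out, and 8 when both libraries with more detected genes were left out. The number of the 5 genes whose groups did not overlap went from 0 to 4 without IgG replicate 4 and to 4 without both libraries. The difference in summed share was -0.77 percentage points, from -1.06 to -0.57 with libraries left out, and -0.23 as a share of TPM times length, which is another quantity by construction. The log2 difference of the rescaling factor was from -0.016 to -0.0087 with libraries left out. The log2 ratio of Tnp1 to Prm1 differed by 0.0046 as designed and by -0.034 after quantile normalization, and ranged from -0.0137 to 0.0211 with libraries left out, below 0 without IgG replicate 1 (-0.00131), IgG replicate 4 (-0.00777), anti-PD-L1 replicate 2 (-0.00494) or anti-PD-L1 replicate 4 (-0.0137). That of Tnp2 to Tnp1 ranged from -0.042 (without IgG replicate 1) to 0.050, and no ratio passed. Abundant genes near 0 changed sign: mt-Atp8 with median-ratio scaling (-0.0139) and Gm28437 with array quality weights (0.0610). With single libraries left out mt-Atp8 ranged from -0.0749 to 0.0660, Ubb from -0.116 to 0.00740, mt-Co1 from -1.46e-05 to 0.112 and Gm28437 from -0.0784 to 0.0955. The causes were not tested. The other 42 selected genes, some of them not described here, kept sign and side of the threshold in 787 of 797 fits. That count includes fits that by construction repeat the estimate as designed. The shared replicate numbers were not treated as pairs in the main fit. Correlations of deviations were -0.11, 0.10, 0.090 and -0.20, and 3 of 8 libraries correlated best with their own number. These values cannot exclude a pairing. With the replicate block the log2 differences stayed at -0.21 (Prm1), -0.16 (Prm2), -0.14 (Prm3), -0.21 (Tnp1) and -0.19 (Tnp2). They cannot change there, because each number stands once in each group. Their standard errors went from 0.079, 0.087, 0.073, 0.074 and 0.094 to 0.030, 0.059, 0.056, 0.039 and 0.069, in the same order. Adjusted p with the block was from 0.910 to 0.952 in limma, and 0 genes passed. TPM keeps no depth, so what counting error limits is unknown.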
